A study of Mus musculus with 2 samples.

Results

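The cells described here are splenic CD8 T cells with the highest summed level of 5 genes of the NF-kB pathway, called NF-kB-high cells below. They were chosen from 18512 barcodes that passed quality limits and carried CD8 and CD3 transcripts (base cells). Each base cell was scored by its UMIs (unique molecular identifiers, 1 per captured transcript) of Nfkbia, Nfkb2, Relb, Bcl3 and Icam1 per 10000 UMIs of the cell. The 3% of base cells with the highest score over both libraries were taken, which gave 555 cells, 212 in the CTRL library and 343 in the DHEA library. They are a range of a continuous score and not a separate cell type. The 10 cells just inside the limit scored 26.7315 to 26.9283 and the 10 just outside it 26.5252 to 26.7296.

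The study profiled CD8 T cells from the spleens of wild-type C57BL/6 mice by droplet single-cell RNA sequencing. Mice of the DHEA group were injected under the skin every day for 21 days with dehydroepiandrosterone at 40 mg/kg in 20 µL of sesame oil. This androgen precursor is used in mice to model polycystic ovary syndrome, and CTRL mice received the same volume of the oil alone. After the red cells had been lysed, magnetic beads served to isolate the CD8 T cells. Each group has 1 library. The series' text speaks of pooled cells, and the sources used here do not give the number, age or sex of the mice behind a library.

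The CTRL library held 9495 barcodes with 51638782 UMIs and the DHEA library 12128 barcodes with 53020893 UMIs, of which 8663 and 9849 were base cells. The 51 barcodes that occur in both libraries were kept, and 3 CTRL and 0 DHEA NF-kB-high cells carry one of them. With 1 library per group no difference has a replicate check and no test was run. Every interval is an exact 95% interval that covers counting error only. NF-kB-high cells had a median of 5189 UMIs in CTRL and 4505 in DHEA, against 5633 and 4874 in the other base cells. Their median mitochondrial share was 2.55% in CTRL and 2.03% in DHEA, against 2.51% and 2.04%, and their ribosomal protein share 34.0% and 35.8%, against 33.7% and 34.4%.

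NF-kB is a family of transcription factors built from Rel proteins that wait in the cytoplasm bound to inhibitors of the IkB family. Signals from the T cell receptor, CD28 or receptors of the tumour necrosis factor family lead to the breakdown of IkB in the canonical route, or to processing of the Nfkb2 precursor and release of Relb complexes in the non-canonical route. The freed dimers bind kB sites near their target genes, and several targets, among them Nfkbia and Tnfaip3, shut the pathway off again. In T cells the pathway is known for its part in activation, survival and adhesion.

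The score joined members with different roles. Nfkbia encodes IkB-alpha, the inhibitor that is made anew after each round of activation. Nfkb2 and Relb encode the partners of the non-canonical dimer, Bcl3 an atypical IkB protein that acts in the nucleus, and Icam1 the adhesion ligand of LFA-1. To show the reference sequence in front of these genes, the 250 bases before the annotated start were searched on both strands for the 10-base kB consensus motif, in RefSeq sequence of the GRCm38.p6 build matched by gene symbol. Of the 32851 such windows in RefSeq, 7.25% held a match. Counted by gene, 8.23% of 27025 genes held a match in at least 1 of their windows. Of the 5 score genes 4 had an entry, and 2 of these 4 (Nfkbia and Nfkb2) had a match, while Relb is named only. The first 2 windows below are those score genes, the next 2 are score genes without a match, and the last 3 belong to genes outside the score that are described further on (the subunit gene Rel, the feedback gene Tnfaip3 and Hivep1). All are written 5′ to 3′ on the strand of the gene, with bases of a match on either strand in capitals.
Nfkbia, chr12:55492648-55492897, minus strand: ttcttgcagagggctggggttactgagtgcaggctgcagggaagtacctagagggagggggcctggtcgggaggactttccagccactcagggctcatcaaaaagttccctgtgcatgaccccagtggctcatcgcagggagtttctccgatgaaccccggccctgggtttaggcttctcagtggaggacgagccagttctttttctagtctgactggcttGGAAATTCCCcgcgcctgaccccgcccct
Nfkb2, chr19:46304487-46304736, plus strand: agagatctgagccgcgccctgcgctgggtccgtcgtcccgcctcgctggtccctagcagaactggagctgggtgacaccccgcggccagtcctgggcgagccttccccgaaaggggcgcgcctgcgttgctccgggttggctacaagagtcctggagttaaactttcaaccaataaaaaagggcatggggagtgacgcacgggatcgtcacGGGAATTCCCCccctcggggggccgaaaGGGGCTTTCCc
Icam1, chr9:21015690-21015939, plus strand: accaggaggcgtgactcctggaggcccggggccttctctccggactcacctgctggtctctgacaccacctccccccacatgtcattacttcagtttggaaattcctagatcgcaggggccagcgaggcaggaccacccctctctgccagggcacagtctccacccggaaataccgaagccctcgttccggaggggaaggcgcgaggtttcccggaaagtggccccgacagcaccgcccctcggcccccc
Bcl3, chr7:19822756-19823005, minus strand: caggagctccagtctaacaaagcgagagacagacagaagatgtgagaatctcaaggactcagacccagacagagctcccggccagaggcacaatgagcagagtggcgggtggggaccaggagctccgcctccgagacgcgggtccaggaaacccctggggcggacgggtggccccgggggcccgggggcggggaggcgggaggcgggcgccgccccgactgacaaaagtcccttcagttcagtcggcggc
Rel, chr11:23770970-23771219, minus strand: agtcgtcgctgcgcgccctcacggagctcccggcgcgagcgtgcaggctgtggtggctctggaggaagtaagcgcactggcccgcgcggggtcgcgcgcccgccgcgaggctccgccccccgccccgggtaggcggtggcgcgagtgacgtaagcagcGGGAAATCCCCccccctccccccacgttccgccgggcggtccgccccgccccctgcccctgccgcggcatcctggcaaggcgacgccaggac
Tnfaip3, chr10:19015411-19015660, minus strand: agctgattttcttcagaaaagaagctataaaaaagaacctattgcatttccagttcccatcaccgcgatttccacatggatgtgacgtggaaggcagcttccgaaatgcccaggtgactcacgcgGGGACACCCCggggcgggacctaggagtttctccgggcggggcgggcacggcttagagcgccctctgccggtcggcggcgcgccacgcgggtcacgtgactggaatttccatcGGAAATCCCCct
Hivep1, chr13:42051771-42052020, plus strand: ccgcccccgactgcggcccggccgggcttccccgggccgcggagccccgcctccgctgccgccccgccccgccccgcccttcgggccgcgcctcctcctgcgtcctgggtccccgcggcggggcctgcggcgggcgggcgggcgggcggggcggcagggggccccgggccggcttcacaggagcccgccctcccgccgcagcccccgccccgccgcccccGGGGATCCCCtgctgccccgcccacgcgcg
A match is a description of the letters and not a bound site, and no match says only that these letters are not in this window. The 3 printed genes outside the score all hold a match, whereas the windows of Gadd45b and Fas, also described further on, hold none. Where windows of 1 gene differ by annotated start, the first in the table is printed for Nfkb2 and Tnfaip3.

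The 5 score genes were high in these cells because they chose them, and their levels are given without support for anything else. Nfkbia (ENSMUSG00000021025) stood at 2694 CPM (UMIs per 1000000 UMIs of the summed cells) in CTRL NF-kB-high cells and 2957 in DHEA, against 370 and 358 in the other base cells. Icam1 (ENSMUSG00000037405) stood at 399 and 340 CPM against 46.4 and 51.4, and Relb (ENSMUSG00000002983) at 309 and 240 against 62.3 and 57.2. For these 3 genes the NF-kB-high cells were 4.19- to 8.61-fold above the rest of their library. Bcl3 (ENSMUSG00000053175) stood at 107 and 92.6 CPM against 11.9 and 14.9, and Nfkb2 (ENSMUSG00000025225) at 88.4 and 72.8 against 21.6 and 18.1.

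**Figure D1:**
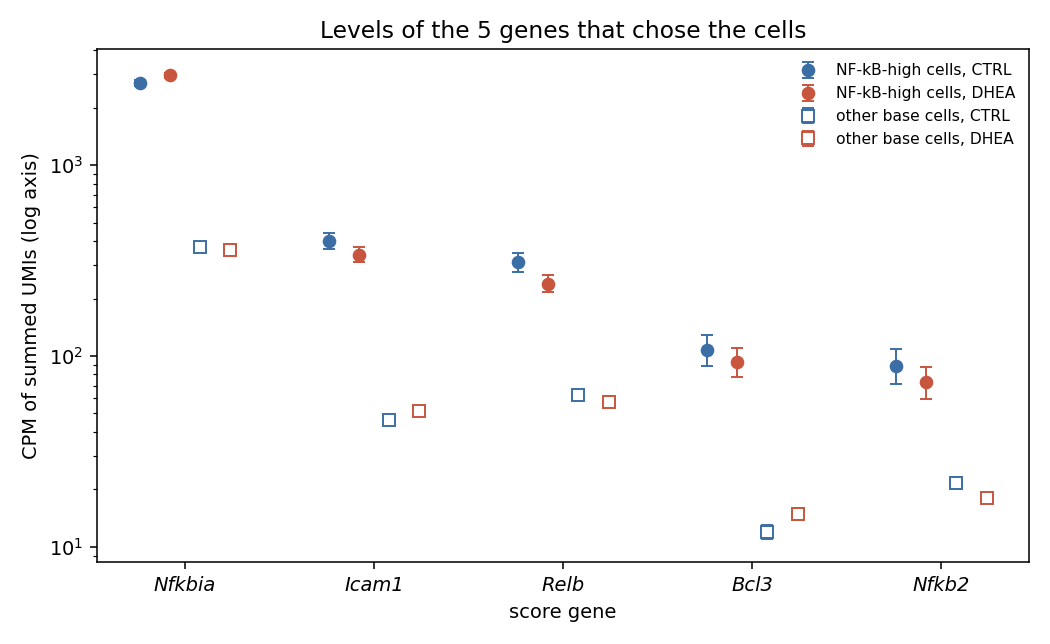
CPM of summed UMIs (log axis) of the 5 score genes, filled circles for NF-kB-high cells and open squares for other base cells, with exact 95% counting intervals, by library. For every gene both libraries' NF-kB-high cells lie above both libraries' other cells, as the choice of cells requires, and Nfkbia is at 2694 and 2957 CPM against 370 and 358.

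Nfkbia carried most of the score. It gave 74.9% of the score UMIs of NF-kB-high cells in CTRL and 79.9% in DHEA, and 72.2% and 71.7% in the other base cells. All 212 CTRL and 342 of the 343 DHEA cells had at least 1 Nfkbia UMI. Of the other score genes, Icam1 was seen in 154 CTRL cells (72.6%) and 210 DHEA cells (61.2%), Relb in 146 (68.9%) and 191 (55.7%), Bcl3 in 83 (39.2%) and 107 (31.2%), and Nfkb2 in 71 (33.5%) and 81 (23.6%). At least 3 of the 5 genes were present in 148 CTRL cells (69.8%) and 196 DHEA cells (57.1%), against 11.4% and 9.77% of the other base cells. Nfkbia was the only score gene seen in 14 CTRL cells (6.60%) and 58 DHEA cells (16.9%). These shares move with depth, since the median of cells with 3 or more score genes was 5591.5 UMIs in CTRL and 5169 in DHEA, and that of cells with 1 score gene 2486.5 and 2206.

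The CD8 identity of the cells was checked against genes outside the score. Cd8a and Cd8b1, the chains of the CD8 co-receptor, stood at 304 and 853 CPM in CTRL NF-kB-high cells, against 351 and 1021 in the other base cells. In DHEA they stood at 368 and 1091 CPM against 418 and 1265. Cd3e, part of the CD3 signalling complex, stood at 658 and 713 CPM against 662 and 698. At least 1 UMI each of CD8 and CD3 was a condition of the choice, so these levels show only that both are kept. Among markers of other cells, Cd4, Ms4a1, Lyz2 and Hba-a1 had 0 UMIs in the NF-kB-high cells of both libraries. The summed level of 10 B cell markers was 23.5 CPM in CTRL and 17.7 in DHEA, against 20.3 and 22.3 in the other base cells, with 8 and 6 of the 10 at 0. The sum of 7 dendritic cell markers was 10.3 and 10.9 CPM against 4.47 and 5.49, with 5 and 3 at 0, that of 8 myeloid markers 0.940 and 1.36 against 2.66 and 13.6, with 7 and 6 at 0, and that of 4 NK cell markers 8.46 and 23.1 against 15.96 and 34.9, with 2 and 1 at 0. Helper T cell and red cell markers (4 and 5 genes) summed to at most 2.72 CPM in either library, with 3 and 4 at 0 in CTRL and 2 and 2 in DHEA. At least 3 UMIs of any of these lists were found in 3 CTRL cells (1.42%) and 5 DHEA cells (1.46%), against 1.62% and 2.99% of the other base cells. Without any cell that carries a UMI of these lists, the medians of the NF-kB genes outside the score given below were 0.93 in CTRL and 0.67 in DHEA, near the 0.94 and 0.70 of all cells.

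The share of NF-kB-high cells was 2.45% of base cells in CTRL (212 of 8663, 2.13 to 2.79) and 3.48% in DHEA (343 of 9849, 3.13 to 3.86). The DHEA share was 1.42 times the CTRL share (1.20 to 1.70). When the cells were compared at like depth, the DHEA share stayed the larger and each ratio was below 1.42. The intervals of the lowest and the highest depth range took in equal shares. Among base cells from 1500 to under 3000 UMIs the ratio was 1.24 (0.870 to 1.81), among those from 3000 to under 6000 UMIs 1.39 (1.07 to 1.81) and among those of 6000 or more 1.27 (0.903 to 1.79), and it was 1.29 after each cell was thinned to 1500 UMIs. With the class chosen anew among base cells of at least 3000 UMIs, it was 1.37. The ratio depended on Nfkbia. Choosing the top 3% by the other 4 genes gave 2.84% of CTRL and 3.14% of DHEA base cells, a ratio of 1.10. Taking a narrower or a wider class moved the ratio to 1.67 (top 1.5%) and 1.22 (top 6%). The part of depth in the gap was not tested.

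Each score gene was then measured in cells chosen without it, as the top 3% by the other 4 genes. Every left-out gene was higher in those cells than in the remaining base cells of its library. Nfkbia was 3.71-fold higher in CTRL (1457 against 393 CPM) and 3.82-fold in DHEA (1547 against 405). Icam1 was 6.65- and 5.38-fold higher, Bcl3 6.92- and 5.03-fold, Relb 3.61- and 3.34-fold, and Nfkb2 3.34- and 3.05-fold. The lowest bound among these 10 log2 ratios was 1.27, for Nfkb2 in DHEA. The 5 genes were picked with a cluster of these same data led by them already known. Their joint rise is therefore a description and not separate support. The choice without Nfkb2, Relb, Bcl3 or Icam1 kept 85.4% to 95.6% of the NF-kB-high cells, whereas the choice without Nfkbia kept 49.1% of those in CTRL and 38.5% of those in DHEA.

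The summed level of pathway genes outside the score rose along its range. A list of 42 further NF-kB genes (3 subunits, 13 feedback genes, 26 targets) had 26 members at 20 CPM or more in base cells, the level above which genes were measured. Their summed level in CTRL was 2233 CPM in cells with a score of 0 and 2302 in cells up to the median of the scores above 0. It was 2632 CPM up to the 90th percentile, 3482 up to the limit of the class and 4479 (4353 to 4608) in the NF-kB-high cells. The DHEA library gave 2331, 2420, 2725, 3512 and 4281 CPM (4176 to 4388). The steps of the sum rise in both libraries and are largest above the 90th percentile. The median depth of the upper 4 ranges fell from 6185 to 5189 UMIs in CTRL and from 5914.5 to 4505 in DHEA. Cells with a score of 0 were the shallowest, at 3911 and 3227 UMIs. Single genes did not all rise at the first step. Nfkb1 went from 151 to 148 CPM in CTRL and Ltb from 646 to 638 in DHEA, while Gadd45b, Fas and Traf1 rose in both.

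**Figure D2:**
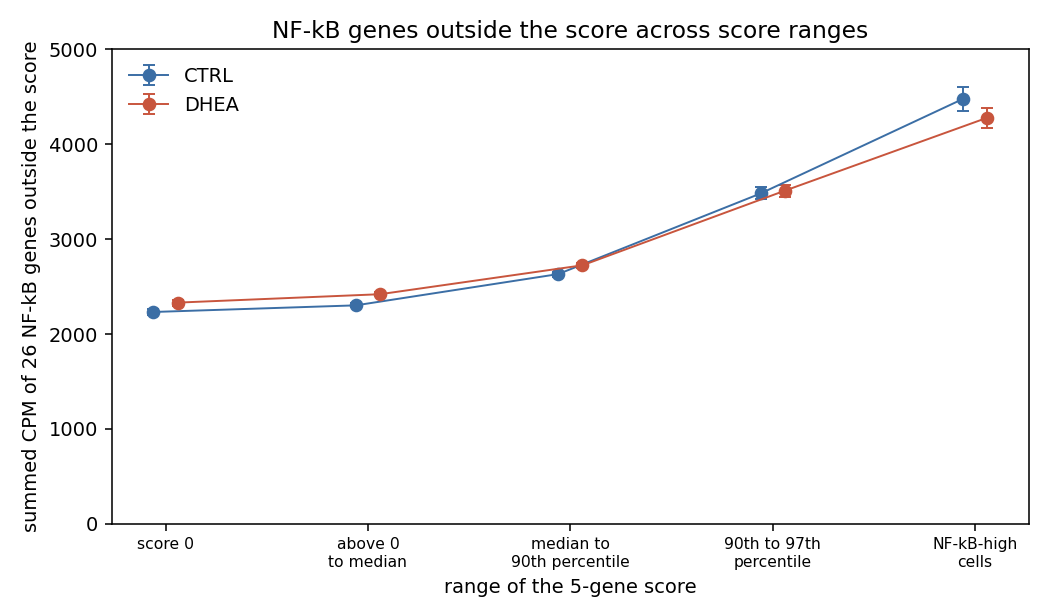
Summed CPM of the 26 measured NF-kB genes outside the score in 5 ranges of the score, by library, with exact 95% Poisson intervals. The curves climb from 2233 (CTRL) and 2331 (DHEA) in cells with a score of 0 to 4479 and 4281 in the NF-kB-high cells.

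Within the class, cells that rest on few score genes also had a summed level above that of the other base cells. In CTRL the summed level of the 26 genes was 4513 CPM in NF-kB-high cells with 3 or more score genes, 4379 in those with 2 and 4299 in the 14 with 1. In DHEA it was 4350, 4314 and 3842 CPM, against 2476 (CTRL) and 2570 (DHEA) in the other base cells. The DHEA cells with 1 score gene were the lowest of the 6 groups and still lay above the other cells of their library. In them Nfkb1 was at 170 CPM, against 313 in DHEA cells with 3 or more score genes and 139 in the other DHEA base cells. The 14 CTRL cells with 1 score gene hold too few UMIs to read single genes. They had 1 UMI of Gadd45b and 2 of Fas, and 13 of Nfkb1 and 17 of Tnfaip3.

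Gene by gene, NF-kB-high cells were set against the other base cells of their own library, and a gene was counted where it was at least 1.5-fold apart in both. The contrast is the one that chose the cells, so it is a description. Of the 26 measured list genes 14 were higher in both libraries and 0 were lower in both, where 1.81% of all 5759 genes measured (104) were higher in both and 2.48% (143) lower in both. Taken library by library, 16 were higher and 1 lower in CTRL, where 3.3% of all genes were higher and 7.38% lower, and 14 were higher and 0 lower in DHEA, where 2.71% were higher and 5.66% lower. By role, 2 of 3 subunits, 6 of 10 feedback genes and 6 of 13 targets were higher. The list's median log2 ratio was 0.94 in CTRL and 0.70 in DHEA, and the median over all genes was -0.04 and -0.06.

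Of the 3 subunits outside the score, Nfkb1 and Rel were higher and Rela stayed under the limit. Nfkb1 (ENSMUSG00000028163), the precursor of p50, stood at 360 CPM in CTRL NF-kB-high cells and 292 in DHEA, against 169 and 139, so it was 2.13- and 2.10-fold higher. Rel (ENSMUSG00000020275), the c-Rel subunit of lymphocytes, stood at 187 and 140 CPM against 84.6 and 67.7, which is 2.21- and 2.07-fold. Rela, the p65 subunit, stood at 63.9 and 61.3 CPM against 48.3 and 43.7 and stayed under the 1.5-fold limit (log2 ratio 0.41, 0.04 to 0.75, and 0.49, 0.17 to 0.79).

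The feedback genes that were higher act at 3 levels. IkB proteins are encoded by 3 of them, Nfkbib (IkB-beta, 2.09-fold in CTRL and 1.60-fold in DHEA), Nfkbid (2.23 and 2.31) and Nfkbiz (2.09 and 2.06). Tnfaip3, which encodes the ubiquitin-editing enzyme A20, had 240 CPM in CTRL cells and 212 in DHEA cells against 119 and 92.9, and its partner Tnip1 at 191 and 144 against 83.2 and 69.0. Both A20 and its partner were thus 2.01- to 2.29-fold higher in the 2 libraries. Zc3h12a, the RNase regnase-1 that cuts inflammatory transcripts, was 2.03-fold higher in CTRL and 2.78-fold in DHEA, with a smaller log2 ratio of 0.57 when Nfkbia was left out of the score. The deubiquitinase gene Cyld was at 116 and 129 CPM against 117 and 118. Otulin, which removes linear ubiquitin chains, was 1.52-fold lower in CTRL and at a log2 ratio of 0.02 in DHEA.

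Among the targets, Gadd45b and Fas had the widest ratios. Gadd45b (ENSMUSG00000015312), a stress-response regulator of MAP kinase signalling, was at 113 CPM in the CTRL library and 106 in DHEA against 24.3 and 23.2, or 4.65- and 4.55-fold higher. It was detected in 82 CTRL and 100 DHEA NF-kB-high cells, with at most 6 UMIs in 1 cell. Fas (ENSMUSG00000024778), the death receptor, stood at 105 and 125 CPM against 33.4 and 36.5, or 3.15- and 3.43-fold higher. The other 4 that were higher in both were the signalling adaptor Traf1 (2.52- and 1.85-fold), the apoptosis inhibitor Birc3 (1.96 and 1.85), the cytokine gene Ltb (1.89 and 1.67) and the transcription factor gene Irf1 (1.76 and 1.64). The smaller log2 ratio of the 2 libraries fell below 1.5-fold for Ltb (0.53) and Traf1 (0.50) in thinned cells, and for Irf1 in the top 1.5% (0.44), in the top 6% (0.57) and without Nfkbia in the score (0.48). The chemokine gene Ccl4 was 3.29-fold higher in CTRL and level in DHEA (1.00-fold), and 79 of its 84 UMIs in CTRL lay in 1 cell.

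A further 4 list genes below the 20 CPM limit are named here after their values were seen, and the rest below it are not described. Of all 42 list genes, 5 in CTRL and 4 in DHEA had 0 UMIs in the NF-kB-high cells. In the other base cells 4 and 2 had 0 UMIs. Cd83, an activation marker of lymphocytes and dendritic cells, had 27 UMIs in CTRL and 37 in DHEA NF-kB-high cells, 25.4 and 25.2 CPM against 1.62 and 1.35. Lta, the lymphotoxin alpha gene, stood at 43.2 and 39.5 CPM against 9.85 and 9.61, and Nfkbie (IkB-epsilon) at 51.7 and 43.6 against 15.1 and 17.1. Il2ra, the inducible chain of the interleukin 2 receptor, had 14 and 12 UMIs, 13.2 and 8.17 CPM against 1.48 and 1.30. Cd83 was seen in 19 CTRL and 24 DHEA cells. Over all NF-kB-high cells the dendritic marker sum was 10.3 and 10.9 CPM, against 4.47 and 5.49 in the other base cells, and its part in the Cd83 level was not tested.

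**Figure D3:**
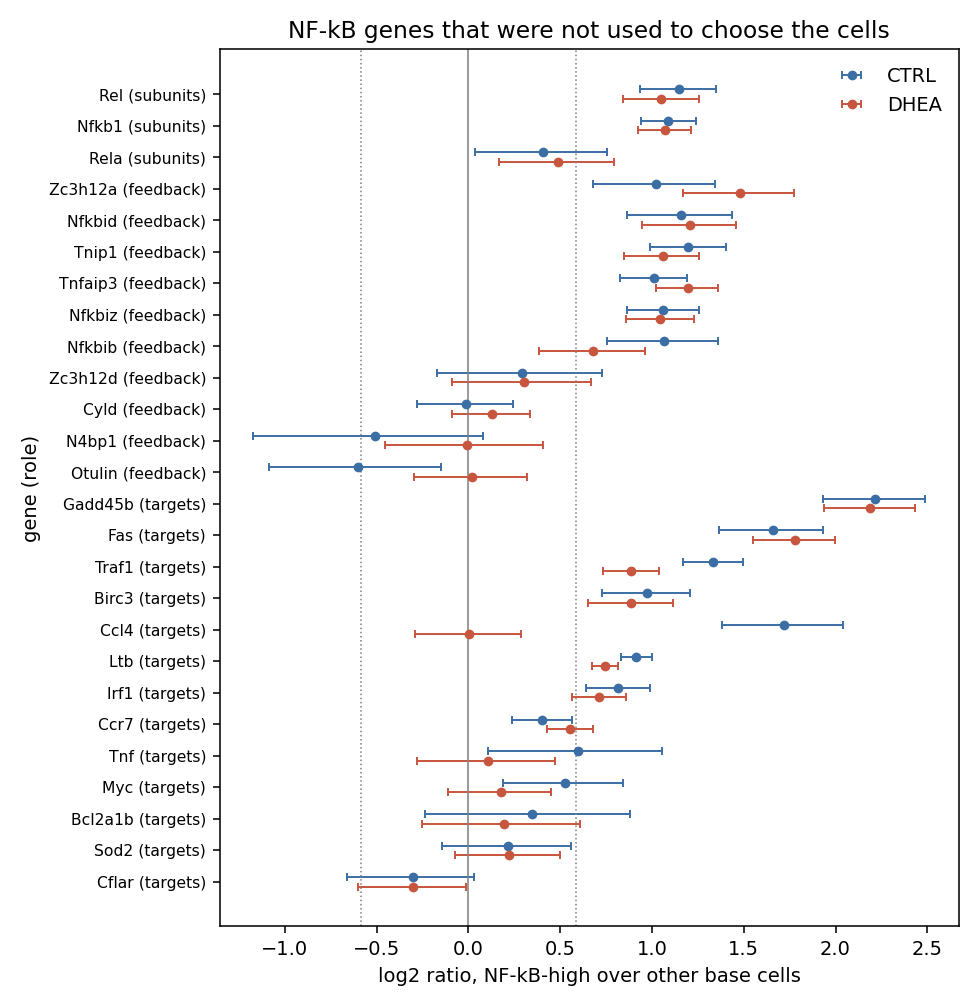
Log2 ratio of NF-kB-high over other base cells for the 26 measured NF-kB genes outside the score, by role and library, with exact 95% counting intervals and dotted lines at 1.5-fold. Gadd45b and Fas lie farthest right in both libraries apart from Ccl4 in CTRL, which rests on 1 cell.

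The adaptors and kinases upstream of NF-kB were not shifted as a list. Of 16 measured genes 2 were at least 1.5-fold higher in both libraries and 1 was lower in both, with a median of 0.01 in CTRL and 0.08 in DHEA. Traf3, which holds back the non-canonical route, was 2.00- and 1.59-fold higher, and Bcl10, of the complex that links antigen receptors to the pathway, 1.76- and 1.59-fold. Of 5 measured receptor genes that feed the pathway 0 were higher in both and 2 were lower in both, Il18r1 (2.00- and 2.09-fold) and the costimulatory receptor gene Cd27 (1.75- and 1.73-fold).

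Over all genes outside the score, the 12 with the highest ratios in both libraries included 2 of the NF-kB list (Gadd45b and Fas). The highest was Hivep1 (ENSMUSG00000021366), a zinc finger protein that binds kB-like enhancer motifs. It had 181 CPM in CTRL cells and 149 in DHEA cells against 34.5 and 29.98, 5.26- and 4.97-fold higher. Tgif1, a repressor of TGF-beta signalling, was 4.70- and 3.52-fold higher, the kinase gene Pim1 2.98- and 3.05-fold, the AP-1 family gene Batf 3.22- and 3.01-fold and the GTPase regulator Tagap 3.12- and 2.77-fold. These genes were spread over many cells, Pim1 over 146 CTRL and 253 DHEA cells and Batf over 82 and 125. The others were the TRAF-binding adaptor Tank (2.75 and 2.41), the histone demethylase gene Kdm2b (3.68 and 2.62), Rrad, which encodes a Ras-like GTPase (2.79 and 2.62), the ubiquitin ligase gene Rnf19b (2.45 and 2.42) and Rarg, which encodes a retinoic acid receptor (2.62 and 2.42). Of the 12, 11 had a promoter entry and 4 held a kB match in at least 1 window, and of the 14 list genes that were higher in both, 12 had an entry and 6 held one. Among all measured genes with an entry 10.5% held one. Genes differ in their number of windows, with 5 for Tgif1 and 1 for Hivep1, and more windows give more chances of a match. The shares were not matched for this, and a difference between them was not tested.

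The 2 lists of activation genes were partly shifted in the same direction. Of 17 measured immediate early genes 7 were at least 1.5-fold higher in both libraries and 0 were lower, with medians of 0.55 and 0.64. Ier5 was 2.10- and 2.18-fold higher, Jund 1.96- and 1.75-fold, the phosphatase gene Dusp2 1.69- and 2.17-fold and Junb 1.58- and 1.89-fold. Of the 17 genes 14 in CTRL and 16 in DHEA lay above 0. The AP-1 genes Jun and Fos had log2 ratios of 0.06 and 0.15, and of -0.08 and 0.32. Tissue handling is known to raise many immediate early genes, and its part in these ratios was not tested. Of 10 measured genes of T cell receptor activation 4 were higher in both, Batf, Nab2 (2.17 and 1.80), the calcium channel gene Orai1 (1.80 and 1.67) and the early activation marker Cd69 (1.56 and 1.69). Egr1 stood at -0.60 in CTRL and 0.10 in DHEA, and Nr4a1, a receptor signal reporter, at 0.45 (-0.08 to 0.94) in CTRL and 1.29 (0.98 to 1.58) in DHEA.

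NF-kB-high cells were also compared with the cells highest for other stimulus genes, each class taken as the top 3% of base cells. In each library the share of NF-kB-high cells in a class had a counting interval that took in that class's share of base cells. Of the NF-kB-high cells 7 in CTRL (3.30%, 1.34 to 6.68) and 18 in DHEA (5.25%, 3.14 to 8.17) were also in the class highest for Egr1, Egr2, Egr3 and Nr4a1, which holds 2.69% and 3.27% of base cells. The class highest for Hspa1a and Hspa1b held 1 CTRL cell (0.472%) and 14 DHEA cells (4.08%) of them, against 1.05% and 4.71% of base cells. The interferon class held 3 (1.42%) and 13 (3.79%), against 3.11% and 2.90%. In those 3 classes the NF-kB list outside the score had median log2 ratios between 0.03 and 0.34, below the 0.94 and 0.70 of the NF-kB-high cells.

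Genes of antigen-experienced cells were lower in NF-kB-high cells. Of 14 measured memory genes 0 were at least 1.5-fold higher in both libraries and 6 were lower in both, with medians of -0.89 and -0.79. Of 6 effector genes 4 were lower in both, with medians of -1.08 and -1.43. Ccl5, the chemokine of memory CD8 cells, was at 223 CPM in the CTRL library and 894 in DHEA against 739 and 1704, 3.32- and 1.91-fold lower. Cells with 2 or more Ccl5 UMIs made up 9.43% of the NF-kB-high cells in CTRL (20) and 17.2% in DHEA (59), against 18.2% and 35.7% of the other base cells. The homing receptor gene Cxcr3 stood at 8.46 and 32.0 CPM against 37.6 and 89.5, and S100a6, a calcium-binding protein of effector cells, at 7.52 and 47.6 against 37.0 and 134. The 12 genes with the lowest ratios, led by Plek, Gzmm and Samd3, rest on few UMIs, 2 to 18 per gene in CTRL apart from S100a4 and Klre1, which were at 0.

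The naive list was level. Of its 15 measured genes 0 were at least 1.5-fold apart in both libraries, with a median of 0.07 in each. Il7r, the survival cytokine receptor of naive and memory cells, stood at a log2 ratio of 0.50 and 0.63, and Ccr7 at 0.40 and 0.55. S1pr1, the egress receptor gene, stood at 79.9 and 128 CPM against 160 and 172. Along the score, the summed naive list moved little, from 7331 CPM at a score of 0 to 7511 in the NF-kB-high cells of CTRL and from 7107 to 7437 in DHEA. Ccl5 had no steady course below the class in CTRL, at 595, 730, 830 and 699 CPM before 223, and in DHEA it stood at 1364, 1670, 1944 and 1797 before 894.

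When all base cells with 2 or more Ccl5 UMIs were left out, 91 genes were higher and 130 lower in both libraries, 84 and 87 of them among the 104 and 143. The list medians outside the score were then 0.88 and 0.70. The lower genes depended on Nfkbia. With the score of the other 4 genes, 55 genes were lower in both libraries, 29 of them among the 143, and Cxcr3, S100a6 and Gzmm no longer reached 1.5-fold. The higher genes numbered 104 under that score as well, 78 of them shared. Subtracting the median of all genes changed the split to 121 higher and 109 lower.

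Most other lists were level. Of 10 measured MHC class I genes and 9 survival genes 0 were 1.5-fold apart in both libraries, with medians of -0.00 and -0.01, and of -0.15 and -0.23. Of 13 heat shock genes 0 were apart in both, at -0.17 and -0.15. Of 15 interferon genes 2 were lower in both (Usp18 and Slfn5), with medians of -0.32 and -0.06, and of 14 cytokine and STAT genes the kinases Pim1 and Pim2 were higher. Of 15 adhesion and homing genes Itgae, the integrin chain that binds E-cadherin, was higher (1.62 and 1.76) and 3 were lower, Cxcr3, Cxcr4 and Itgb1.

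**Figure D4:**
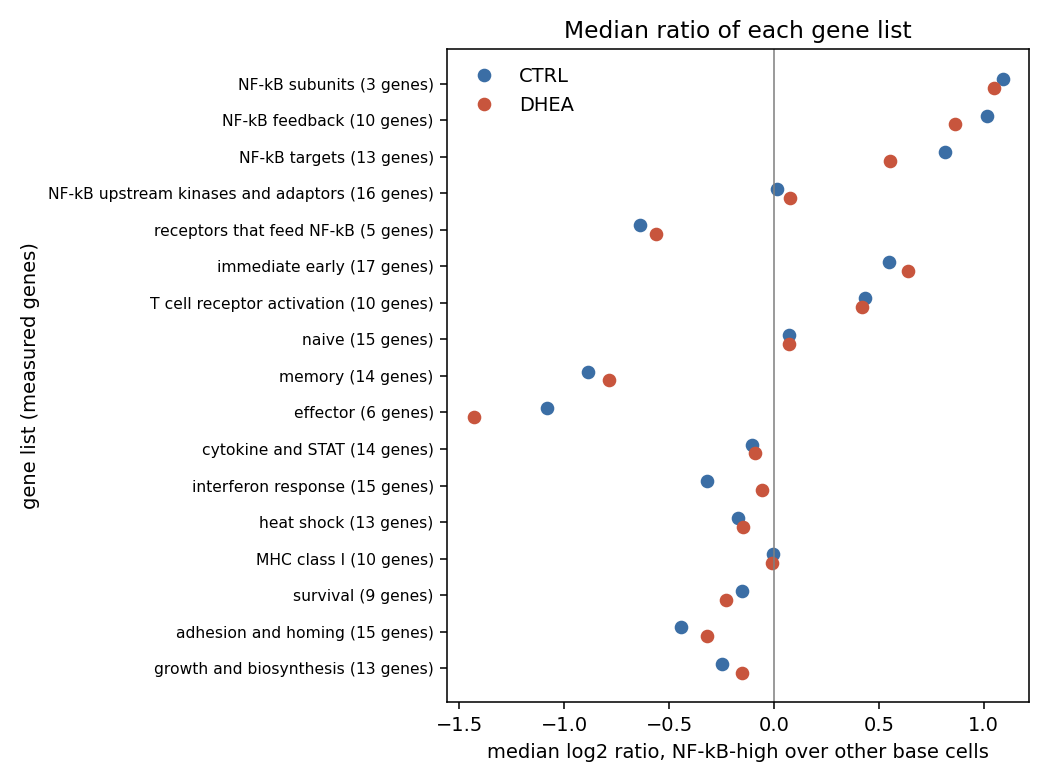
Median log2 ratio of NF-kB-high over other base cells for 17 gene lists, by library, with the number of measured genes of each. The 3 NF-kB lists and the immediate early and T cell receptor activation lists lie farthest right of 0. The effector, memory, receptor, adhesion and growth lists are among those left of 0 in both libraries.

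The study's own comparison, DHEA against CTRL, was made inside the NF-kB-high cells, with the same ratio in the other base cells beside it. The score genes had log2 ratios of DHEA over CTRL between -0.37 (Relb, -0.59 to -0.15) and 0.13 (Nfkbia, 0.07 to 0.20). One limit on their summed level chose the cells of both libraries, so nothing is read from these ratios. The 26 NF-kB genes outside the score had a median of -0.07, where the median of all genes was -0.02. Of these 26 genes 2 were at least 1.5-fold higher in DHEA and 0 lower, where 4.78% of all genes (275) were higher and 4.53% (261) lower. Nfkb1 stood at -0.30 (-0.50 to -0.10) inside the class and -0.28 outside it, and Rel at -0.42 (-0.70 to -0.13) and -0.32. Gadd45b stood at -0.10 (-0.45 to 0.26) and Fas at 0.25 (-0.10 to 0.60), both within counting error of 0.

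Many of the 275 and 261 genes rest on few UMIs, since the summed NF-kB-high cells hold 1063878 UMIs in CTRL and 1469166 in DHEA. In the other base cells, which hold 48107644 and 47558584, 0.816% of genes were higher and 0.469% lower. At a limit of 50 CPM instead of 20, 57 genes were higher and 59 lower inside the class.

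Among the 10 genes with the highest ratios, Ccl5 and Hspa1b had the most UMIs. Ccl5 was 4.01-fold higher in DHEA NF-kB-high cells (log2 2.00, 1.80 to 2.21) and at 1.21 in the other base cells. Only 20 CTRL and 59 DHEA NF-kB-high cells had 2 or more Ccl5 UMIs. The interval counts UMIs and leaves out the spread between cells, so it is too narrow for a gene held by few cells. Hspa1b, an inducible HSP70 gene whose near-identical copy Hspa1a can share its reads, had 39.5 CPM in CTRL cells and 151 in DHEA cells, a log2 ratio of 1.94 (1.46 to 2.45) inside the class and 1.72 outside it. Its UMIs lay in 13 CTRL and 69 DHEA cells, and in the top 1.5% of base cells its ratio was 0.46, below 1.5-fold, where that of Ccl5 was 1.78.

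Ly6a, the Sca-1 surface protein that interferons and activation raise, had the highest ratio. It stood at 10.3 CPM in CTRL (11 UMIs in 9 cells) and 83.7 in DHEA (123 UMIs in 72 cells), a log2 ratio of 3.02 (2.13 to 4.06), and at 1.62 in the other base cells. S100a6 stood at 2.66 (1.61 to 3.93) against 1.85, and Cxcr3 at 1.92 (0.87 to 3.13) against 1.25. The intervals inside the class reach the values outside it for S100a6 and Cxcr3, and do not for Ly6a and Ccl5. These ratios depended on how the cells were chosen. Without Nfkbia in the score, they were 1.23 for Ccl5, 2.02 for Ly6a, 1.01 for S100a6 and 0.72 for Cxcr3. The Ccl5 ratio was 1.34 without cells that carry a UMI of another cell type. The chemokine gene Xcl1 stood at 8.46 and 54.5 CPM (9 and 80 UMIs), 2.69 (1.69 to 3.87) against 0.41, with 16 of the 80 UMIs in 1 cell, and it was 0.19 in the top 6% and turned to -0.30 when the cells were chosen without Nfkbia. Whether any ratio differs between the class and the other cells was not tested.

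Nr4a1 was at 32.9 CPM in the CTRL library and 66.7 in DHEA NF-kB-high cells, a log2 ratio of 1.02 (0.45 to 1.62) inside the class and 0.18 outside it. Isg15, an interferon-induced ubiquitin-like protein, stood at 52.6 and 100.1 CPM, 0.93 (0.47 to 1.40) inside and 0.20 outside. Klf2, a factor of T cell quiescence and homing, was 1.61-fold higher inside the class (0.68, 0.54 to 0.82) and at 0.63 outside it. By list, 6 of 14 memory genes, 3 of 5 effector genes with a ratio and 4 of 13 heat shock genes were at least 1.5-fold higher in DHEA inside the class and 0 of any of them lower. Outside it 7 of 14, 5 of 6 and 4 of 13 were higher. Of 15 interferon genes 4 were higher and 2 lower inside the class, with a median of 0.21, and 1 was higher and 0 lower outside it, with a median of -0.10. Over all genes measured, 4.78% were higher and 4.53% lower inside the class. Outside it, where far more UMIs were summed, the shares were 0.816% and 0.469%, so the counts inside and outside are not alike in counting error. The 10 lowest ratios ran from -1.31 (Slfn5, 18 and 10 UMIs) to -1.14 (Kdm4b), and these genes had at most 66 UMIs in either library.

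**Figure D5:**
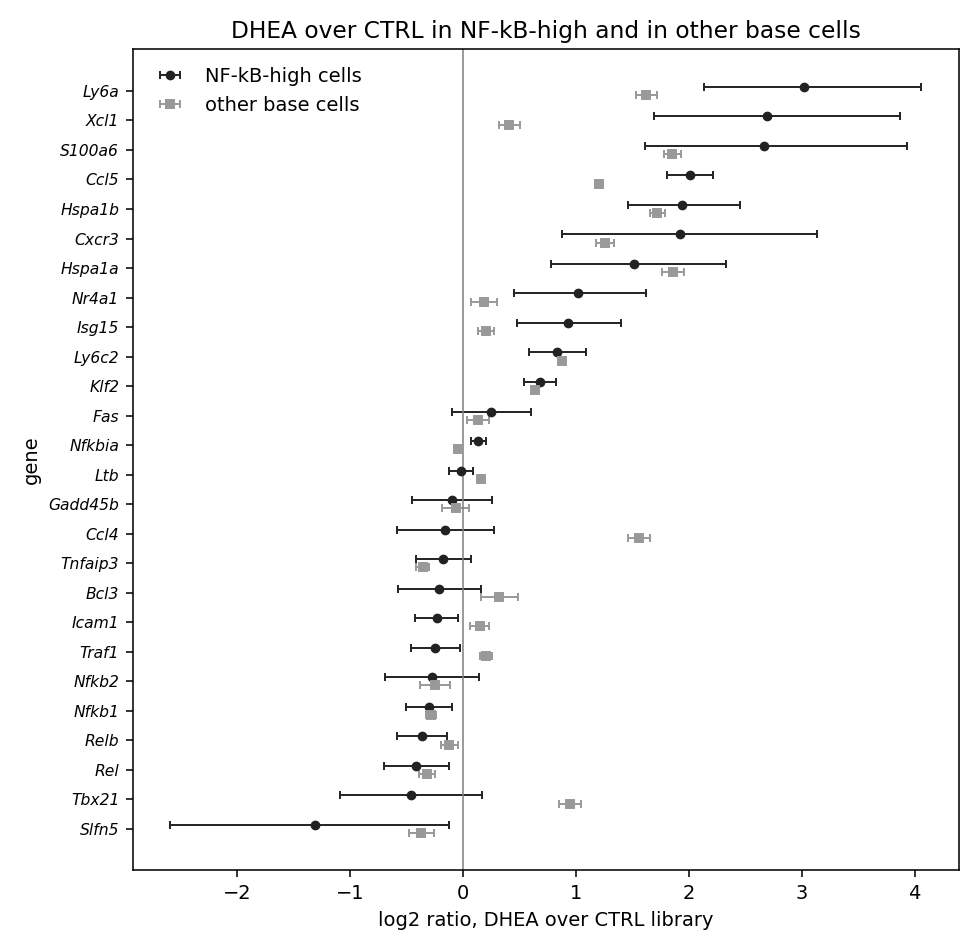
Log2 ratio of DHEA over CTRL in NF-kB-high cells (circles) and in other base cells (squares) for 26 genes named in the text or in the pathway, with exact 95% counting intervals. Ly6a, Xcl1, S100a6, Ccl5 and Hspa1b lie farthest right, and the score genes lie between -0.37 and 0.13.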

How the data were processed

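The values are raw UMI counts that the authors deposited as 1 gene-by-barcode matrix per library, written by Cell Ranger 8.0.1 according to the file headers. Seurat 4.3.0 and mm39 are listed too, per the submitters' processing notes, with no stated use. The matrices hold 33696 genes and 2 libraries, 1 per group, and no filter by the authors is given in the sources used here. Base cells had at least 200 genes, under 10% mitochondrial UMIs, at least 1500 UMIs, and at least 1 UMI each of Cd8a or Cd8b1 and of Cd3d, Cd3e or Cd3g. Doublets were not called, and an alternative left out the 5% of cells with the most UMIs. Of barcodes with enough UMIs that failed the other conditions, 21 of 550 in CTRL (3.82%) and 25 of 661 in DHEA (3.78%) reached the score of the NF-kB-high cells.

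UMIs were summed per library and class and given as CPM. Intervals are exact at 95%: binomial (split of both counts) for log2 ratios, Poisson for CPM, Clopper-Pearson for shares. A sum of 0 UMIs was replaced by 3, and ratios of sums that were both at most 3 were left out. Genes at 20 CPM or more in base cells (mean of the libraries) were measured, 5759 without the score genes, and counted from 1.5-fold as a rule of size. The steps were tested on simulated counts. Tools were Python 3.11.15, numpy 2.4.6, scipy 1.17.1, pandas 2.3.3 and matplotlib 3.10.9.

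Promoter windows come from RefSeq (GRCm38.p6), a build other than mm39, so they were matched by symbol only.

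Named genes were the score genes, list genes past 1.5-fold in both libraries, the 12 highest and lowest ratios of NF-kB-high over other cells, the 10 highest and lowest of DHEA over CTRL, up to 4 genes of each other list and a panel. Immunoglobulin, receptor segment, haemoglobin, mitochondrial, ribosomal and unnamed genes did not enter these rankings. A few genes that the rule names are not reported here. Rela, Otulin, Cyld, Ccl4, Cd83, Lta, Nfkbie, Il2ra, Ly6c2, Tbx21, Itgae, Neat1 and the other cell type markers are not covered by it and were chosen with their values in view. The cells and lists were chosen with earlier results of these data known, among them a cluster led by the 5 score genes.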

Additional observations from a re-analysis of the deposited data

Results flagged for a closer look

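Among the measured genes of the lists and the named genes, 2 had ratios of NF-kB-high over other base cells that lay on opposite sides of 0 in the 2 libraries, each with a counting interval that left out 0. Tbx21, the T-bet transcription factor gene of effector and memory cells, had a log2 ratio of 0.67 in CTRL (42.3 against 26.6 CPM) and -0.74 in DHEA (30.6 against 51.3 CPM), on 45 UMIs in the NF-kB-high cells of each library. Slf1, a genome maintenance gene, had 0.52 in CTRL (51.7 against 36.1 CPM) and -0.53 in DHEA (22.5 against 32.3 CPM), on 55 and 33 UMIs. Slf1 was among the named genes for its low ratio of DHEA over CTRL inside the NF-kB-high cells (log2 -1.20). That choice favours a ratio above 0 in CTRL and below 0 in DHEA, so nothing further is read from the opposite signs of Slf1. The difference between the libraries was not tested for either gene, since each group has 1 library.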

How the results depend on the processing

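No paired analysis was possible because each group has 1 library, and no library could be left out. The medians of the NF-kB genes outside the score stayed above 0 in the alternatives in which they were recomputed, from 0.67 to 0.96 in CTRL and from 0.55 to 0.78 in DHEA. The DHEA median of 0.55, after cells were thinned to 1500 UMIs, was the value below 1.5-fold. The share ratio ranged from 1.10 (score without Nfkbia) to 1.67 (top 1.5%). Genes lower in both libraries numbered 66 in the top 6%, 55 without Nfkbia, 234 at 10 CPM, 59 at 50 CPM and 540 with no minimum, and genes higher in both 51 at 50 CPM and 568 with no minimum. Genes higher and lower in DHEA within the NF-kB-high cells numbered 726 and 854 in thinned cells, 581 and 523 in the top 1.5%, 120 and 115 in the top 6%, 573 and 533 at 10 CPM, 57 and 59 at 50 CPM and 1260 and 1218 with no minimum. By means over cells 419 were lower. Thinned cells, the top 1.5% and a lower limit on level gave more genes past 1.5-fold, apart from genes higher in both libraries in thinned cells (85). Other alternatives that left cells out did not all do so. A mitochondrial share under 5% gave 96 higher and 131 lower in both libraries, against 104 and 143. Of single genes, 3 turned in DHEA over CTRL. Lncppara went to 0.18 in thinned cells and 0.34 without Nfkbia, Coro2a to -0.61 and Xcl1 to -0.30 without Nfkbia. The cause of these turns was not tested. Of the 36 genes followed in NF-kB-high over other base cells, 14 fell below 1.5-fold under at least 1 alternative. In DHEA over CTRL it was 14 of 20. The medians were not recomputed at 50 CPM, with no minimum or after subtracting the median of all genes. Dropping base cells of 2 or more Ccl5 UMIs (a step planned for NF-kB-high cells alone), dropping shared barcodes and the depth ranges were chosen after seeing the data.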

Other observations

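Further lists were described in the NF-kB-high cells without a comparison of their own. Of 13 measured growth and biosynthesis genes 0 were at least 1.5-fold higher in both libraries and 1 was lower in both, Srm, which encodes spermidine synthase (log2 ratio -1.21 in CTRL and -0.65 in DHEA). Of 5 measured cell cycle genes 0 were apart in both. The nuclear transcripts Malat1 and Neat1 stood at 0.09 and 0.07, and 0.08 and -0.06, so NF-kB-high and other base cells held like levels of them within each library.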
